A study of Homo sapiens with 60 samples.

Results

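The 43 genes described here are interferon-stimulated and antigen presentation genes, taken from a given list and matched by symbol to the Ensembl identifiers of a table of 60675 genes. Each was found, and all 43 were among the 17676 genes that passed the filter on low counts. By role they comprise 6 sensors and signal transducers, 23 antiviral effectors, 7 genes of ISG15 conjugation and ADP-ribosylation, and 7 genes of class I antigen presentation. RNA was taken from SW1783, an established human astrocytoma line, 24 h after addition of an ethanol extract of herbs or of DMSO vehicle. The 60 libraries comprised 3 of the vehicle, 18 groups of 3 (6 extracts at 3 doses) and 3 of Rehmanniae Radix Preparata (prepared rehmannia root), 1 library a dose. Astragali Radix (astragalus root) was given at 220, 44 and 8.8 µg/mL. Cinnamomi Cortex (cinnamon bark), Rehmanniae Radix Preparata and 4 formulas (Palmul-tang, Samul-tang, Sagunja-tang and Sibjeondaebo-tang) were given at 500, 100 and 20 µg/mL. These doses are called high, medium and low. In the traditional recipes Palmul-tang is made of the herbs of Samul-tang together with those of Sagunja-tang, while Sibjeondaebo-tang is Palmul-tang with Astragali Radix and Cinnamomi Cortex added. The text of the series ties doses under 500 µg/mL to an IC20, a concentration set by its inhibition of the cells, so equal dose names are not equal amounts between Astragali Radix and the rest. The vehicle is labelled 0.1% DMSO, and the text of the series says 2%. All samples are of 1 line, and whether the replicates came from separate cultures is not in the labels, so p-values reflect only how far these libraries spread, which may be technical.

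Interferons are cytokines released after sensors such as RIG-I (RIGI) and MDA5 (IFIH1) detect foreign RNA. Type I interferon acts through the kinases JAK1 and TYK2 on a complex with STAT2 and IRF9 that binds a response element in the promoters of its target genes, while interferon gamma acts through JAK1 and JAK2 and induces IRF1. The induced proteins block viral entry and replication, attach the ubiquitin-like protein ISG15 to other proteins, and raise the display of peptides on MHC class I, which astrocytes normally show little of.

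Of the markers of astrocytes and glioma, VIM and CD44 were abundant in all 57 libraries of the replicated groups, at no less than 3722 and 1834 CPM (counts scaled to the library total), and SOX9 (58.8 to 82.7 CPM), SLC1A3 (11.9 to 27.0 CPM) and NES (1.62 to 15.7 CPM) were present in all. GFAP, S100B, AQP4, ALDH1L1 and SOX2 stayed at or below 0.326 CPM and SLC1A2 at or below 0.445 CPM, so 5 of the 11 markers of the labelled lineage were present, without GFAP. All 6 fibroblast markers had a median above 1 CPM, with COL1A1 at 3948 and COL1A2 at 2048 CPM. The markers alone therefore do not establish the lineage, which is taken from the label. Markers of T, B and NK cells summed to at most 0.144 CPM in any library, and of the 8 microglia and macrophage markers TYROBP was 0 in 57 libraries and AIF1 in 55, while CD68 (87.2 to 217 CPM), PTPRC (2.99 to 13.0 CPM) and CSF1R (2.00 to 3.58 CPM) were present in all. Total expected counts ran from 19793387 to 37152410 per library. The Astragali Radix low libraries were all unlike each other: the lowest chi-square per gene over pairs of that group was 80.8, against at most 7.33 in the other groups. That value does not show which libraries stood apart. ISG15, for example, was at 24.1 CPM in replicate 3, inside the vehicle's range, and at 41.7 and 87.4 CPM in replicates 1 and 2. Replicates 1 and 2 are the libraries said here to stand apart. Their spread enters the shared error of every test, so counts of calls are given with all libraries and then without these 2. The vehicle libraries carry another code in their labels than the extract libraries, so extract and code cannot be told apart in any comparison with the vehicle. The extract libraries' codes differ too: Sagunja-tang and Samul-tang share one, Palmul-tang and Sibjeondaebo-tang another, and Astragali Radix and Cinnamomi Cortex a further one. Mitochondrially encoded genes took 6.26% to 6.66% of counts in the vehicle, 3.99% to 4.6% in Astragali Radix high, and at most 5.78% in any extract library of the replicated groups. The lowest share was 1.11%, in Astragali Radix low replicate 2, one of the 2 libraries that stood apart. This share moved with every comparison to the vehicle, and its part in the results was not tested. In bulk RNA, fewer cells of a kind and less RNA per cell cannot be told apart.

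Promoters are shown first because a shared element is what ties many of these genes to interferon. The 250 bases before each RefSeq start (GRCh38.p14) were searched on both strands for the core of the interferon-stimulated response element, GAAANNGAAA. Entries were found for 36 of the 43 members, and 21 of these (58.3%) held a match, in at least 1 of their promoters, against 1014 of all 27305 genes in the table (3.71%), or 3.02% of its 35116 promoters. The element was held by 9 of 13 members that rose with Astragali Radix at the high dose, by 10 of 17 that fell and by 2 of 6 that were not called. The same search for the gamma-activated site, TTCNNNGAA, gave 12 of the 36 members (33.3%), against 8.09% of all genes. That site was held by 4 of the 13 that rose, 4 of the 17 that fell and 4 of the 6 not called. The members were listed as interferon-stimulated genes, so a share above that of all genes follows from the choice of list and is no finding of these data. A match describes letters and shows no binding. IFIT2, MX2, OAS2, OASL, IRF7, USP18 and HLA-E had no entry. The 200 bases before the start follow for 3 members that rose (IFIT3, ISG20 and B2M), 3 that fell (OAS3, IFI44L and EPSTI1) and 1 not called (ISG15). They are examples that hold the element, so a match in each follows from the choice. Each reads 5′ to 3′ on the gene's strand, with GAAANNGAAA or its reverse complement in capitals, at chr10:89327797-89327996 for IFIT3 (plus strand), chr15:88638816-88639015 for ISG20 (plus strand), chr15:44711317-44711516 for B2M (plus strand), chr12:112938274-112938473 for OAS3 (plus strand), chr1:78620248-78620447 for IFI44L (plus strand), chr13:42992242-42992441 for EPSTI1 (minus strand) and chr1:1013297-1013496 for ISG15 (plus strand).
IFIT3: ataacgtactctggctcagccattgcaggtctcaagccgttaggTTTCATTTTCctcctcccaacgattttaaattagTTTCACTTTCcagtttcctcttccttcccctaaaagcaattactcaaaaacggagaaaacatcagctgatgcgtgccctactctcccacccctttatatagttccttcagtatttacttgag
ISG20: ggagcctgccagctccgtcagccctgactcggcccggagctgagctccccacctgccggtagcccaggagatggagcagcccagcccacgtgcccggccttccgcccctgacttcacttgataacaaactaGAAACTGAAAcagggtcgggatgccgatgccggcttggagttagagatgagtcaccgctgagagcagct
B2M: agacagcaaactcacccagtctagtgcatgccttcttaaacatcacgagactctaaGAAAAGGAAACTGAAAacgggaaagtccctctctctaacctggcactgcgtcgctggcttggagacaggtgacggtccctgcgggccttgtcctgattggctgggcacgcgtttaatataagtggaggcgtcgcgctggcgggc
OAS3: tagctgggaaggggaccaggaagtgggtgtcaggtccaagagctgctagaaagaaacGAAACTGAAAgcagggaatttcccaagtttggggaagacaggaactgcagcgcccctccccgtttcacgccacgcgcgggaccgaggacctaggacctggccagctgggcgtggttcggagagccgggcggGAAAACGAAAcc
IFI44L: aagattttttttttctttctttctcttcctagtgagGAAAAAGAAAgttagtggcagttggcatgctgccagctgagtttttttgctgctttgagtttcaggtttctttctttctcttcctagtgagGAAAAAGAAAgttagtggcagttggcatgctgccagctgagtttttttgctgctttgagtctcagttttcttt
EPSTI1: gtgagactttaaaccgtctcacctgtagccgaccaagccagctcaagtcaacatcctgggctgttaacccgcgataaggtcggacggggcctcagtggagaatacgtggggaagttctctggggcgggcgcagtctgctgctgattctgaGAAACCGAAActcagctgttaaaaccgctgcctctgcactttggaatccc
ISG15: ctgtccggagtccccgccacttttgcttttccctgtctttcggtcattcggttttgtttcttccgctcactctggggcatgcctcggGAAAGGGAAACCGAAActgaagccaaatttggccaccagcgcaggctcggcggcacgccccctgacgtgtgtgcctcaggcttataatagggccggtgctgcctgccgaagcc

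The matches begin 156 and 122 bases before the start in IFIT3, 69 in ISG20, 143 and 12 in OAS3, 164 and 73 in IFI44L, and 50 in EPSTI1. B2M (144 and 138) and ISG15 (113 and 107) each hold 2 overlapping matches, seen as a single run of capitals. B2M rose and ISG15 was not called at the high dose of Astragali Radix, so the same arrangement stood before genes with different calls.

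In the vehicle the class I genes were the most abundant members. Per kilobase of the longest transcript, the level of B2M, the light chain of every class I molecule, was 335 CPM per kb, that of HLA-B 251 and that of HLA-C 234. BST2 (tetherin, which holds budding virus at the cell surface) and HLA-E followed at 91.0 and 90.4 CPM per kb. The sensors RIGI and IFIH1 stood at 3.01 and 1.28 CPM per kb. OAS1, ISG20 and RSAD2 were lowest, at 0.408, 0.146 and 0.0978 CPM per kb, and rest on few counts. Class I genes share near-identical stretches, and the annotated spans of HLA-B (chromosome 6, 31269491 to 31357188) and HLA-C (chromosome 6, 31268749 to 31272130) overlap, so how reads were split between them is uncertain. PSMB9 overlaps TAP1 and PSMB8, and PARP9 overlaps DTX3L, on opposite strands, and the strand setting of the counting is not given in the sources used here.

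Astragali Radix at the high dose moved the members in both directions. IRF7, ISG20, RSAD2, IFIT2, HLA-E, IFI27 and BST2 led the rises, while OAS1, MX2, EPSTI1, XAF1, OAS2, OAS3, SAMD9L and IFI44L led the falls. Against the vehicle 16 of the 43 rose and 20 fell (edgeR quasi-likelihood test, Benjamini-Hochberg adjusted p below 0.05 over all genes), where 32.6% of all genes tested rose and 35.6% fell, so a large share of all genes moved as well. The median change of the members was -0.15 on the log2 scale, against -0.06 over all genes. RIGI, IRF9, MX1, OASL, IFI35, ISG15 and PSMB8 were the 7 not called. Among the 19 group means, that of Astragali Radix high was the highest for 15 members and the lowest for 21. The same was not counted over all genes, of which 68.2% were called here, so these places are not shown to be particular to the members. Without the 2 libraries that stood apart, 16 rose and 21 fell, with 72.3% of all genes called. Of the marker lists, fibroblast markers, all of which this line expresses, summed to 1840 to 2001 CPM at the high dose and to 5919 to 6126 CPM in the vehicle. COL1A1 and COL1A2 carried that sum (means of 1071 and 723 against 4189 and 1731 CPM), while DCN and LUM were at 15.6 and 31.4 against 13.8 and 26.6 CPM. Endothelial markers summed to 15.5 to 18.3 against 28.0 to 32.0 CPM, neuron and oligodendrocyte markers to 42.6 to 46.3 against 58.6 to 60 CPM, and microglia and macrophage markers to 203 to 207 against 188 to 204 CPM. By mean, SNAP25 was at 6.0 against 18.9 and SYT1 at 33.7 against 34.9 CPM, and CD68 at 198 against 184 and PTPRC at 3.2 against 8.2 CPM. Astrocyte and glioma markers summed to 7616 to 8494 against 8146 to 8335 CPM. VIM was at 5791 against 5317 and CD44 at 2255 against 2844 CPM. SOX9 was at 59.7 against 78.7, SLC1A3 at 12.2 against 21.7 and NES at 1.7 against 5.1 CPM. Their part in the members' changes was not tested.

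**Figure D1:**
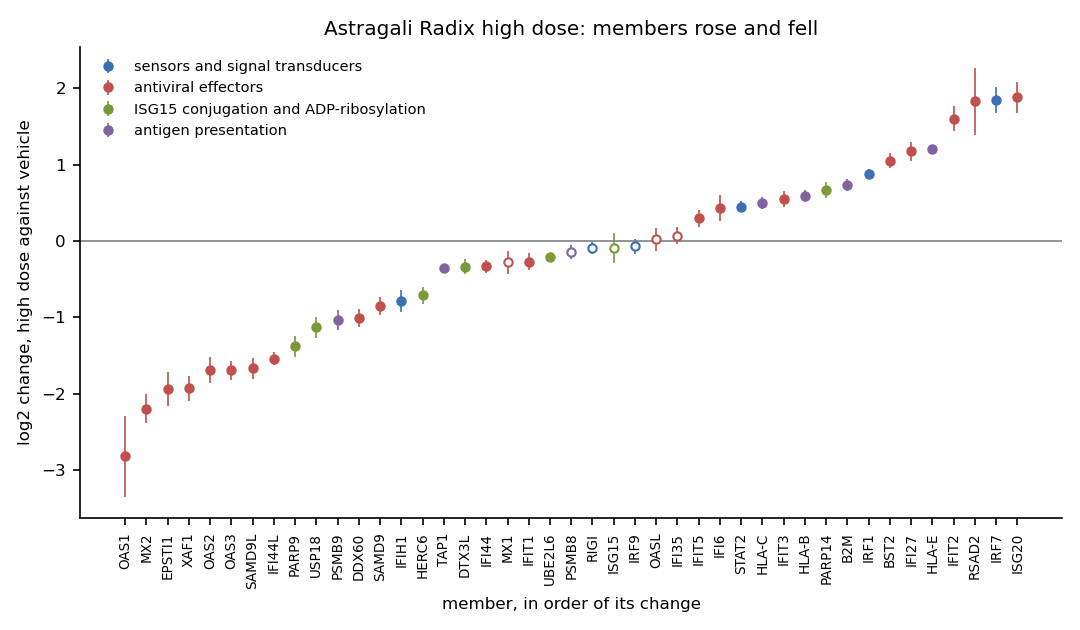
Log2 change of each of the 43 members with Astragali Radix at the high dose against the vehicle, ordered by size, with bars of 1 SE (3 libraries a group). Filled points have an adjusted p below 0.05 and open points do not. The values run from -2.82 for OAS1 to 1.88 for ISG20, with antiviral effectors at both ends.

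Among the transducers, 3 of 6 rose and 1 fell, where 32.6% and 35.6% of all genes did. IRF7, the factor that drives transcription of the interferon alpha genes, was at 3.80, 3.51 and 3.82 CPM in the vehicle libraries and at 12.9, 15.1 and 11.9 CPM in those of the high dose. The groups lie far apart, a 3.59-fold rise (log2 1.84, SE 0.17, adjusted p = 2.02e-13). IRF1, an activator of class I genes, was at 27.1, 27.8 and 27.7 CPM in the vehicle libraries and at 51.8, 50.2 and 50.3 CPM in those of the high dose. Its replicates were close and did not overlap, a 1.84-fold rise (log2 0.88, SE 0.06, adjusted p = 1.96e-16). STAT2 was at 25.9, 25.0 and 27.5 CPM in the vehicle libraries and at 32.0, 33.3 and 42.0 CPM in those of the high dose, all above the vehicle, and rose by 0.45 (SE 0.08, adjusted p = 1.4e-06). IFIH1 was at 4.66, 4.86 and 4.30 CPM in the vehicle libraries and at 3.01, 3.06 and 1.78 CPM in those of the high dose. Every high-dose library lay below the vehicle, and IFIH1 fell by 0.79 (SE 0.14, adjusted p = 4.73e-06). For RIGI and IRF9 the groups overlapped, with changes of -0.09 (SE 0.07, adjusted p = 0.27) and -0.07 (SE 0.09, adjusted p = 0.505).

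Of the 23 antiviral effectors 8 rose and 12 fell, where 32.6% and 35.6% of all genes did. The IFIT genes, neighbours on chromosome 10 whose proteins act on viral RNA, did not move as a block. IFIT2 (chromosome 10, 89283694 to 89309276) was at 11.8, 9.0 and 6.62 CPM in the vehicle libraries and at 26.1, 27.4 and 30.0 CPM in those of the high dose. The vehicle libraries spread widely, yet all high-dose libraries lie above them, a 3.03-fold rise (log2 1.60, SE 0.16, adjusted p = 4.1e-12). IFIT3 rose by 0.55 (SE 0.11, adjusted p = 1.28e-05), and IFIT5 by 0.30 (SE 0.11, adjusted p = 0.0158), a call lost without vehicle replicate 2 or without high-dose replicate 2 or 3 (adjusted p = 0.0764, 0.0811 and 0.125). IFIT1 (chromosome 10, 89392546 to 89406486) was at 11.6, 11.1 and 8.34 CPM in the vehicle libraries and at 7.83, 9.16 and 8.73 CPM in those of the high dose. These ranges overlap, and its fall of 0.27 (SE 0.11, adjusted p = 0.0358) was lost with DESeq2 (adjusted p = 0.0575), with RLE size factors (0.0529) and without vehicle replicate 1 (0.172), vehicle replicate 2 (0.108) or high-dose replicate 1 (0.127).

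The oligoadenylate synthetases OAS1, OAS2 and OAS3, which make the messenger that activates RNase L, fell, and OASL, a relative without that activity, was not called. OAS3 (chromosome 12, 112938352 to 112973249) was at 26.4, 23.4 and 29.4 CPM in the vehicle libraries and at 8.69, 8.51 and 7.19 CPM in those of the high dose. The groups do not overlap, a 3.23-fold fall (log2 -1.69, SE 0.12, adjusted p = 1.56e-16). OAS2 changed by -1.69 (SE 0.17, adjusted p = 3.81e-12) and OAS1, from a mean of 0.987 to 0.147 CPM, by -2.82 (SE 0.53, adjusted p = 7.68e-06). The change of OASL was 0.03 (SE 0.15, adjusted p = 0.891). The dynamin-like GTPase MX2, which blocks HIV, fell by 2.19 (SE 0.19, adjusted p = 2.13e-14). MX1, which acts on influenza virus, was at 12.7, 10.3 and 12.1 CPM in the vehicle libraries and at 10.1, 9.38 and 9.41 CPM in those of the high dose. Its high-dose libraries lie just under the vehicle's, and the change of -0.28 (SE 0.15, adjusted p = 0.0925) was not called. It was called without the filter on low counts (adjusted p = 0.0263), in a fit of the compared groups by themselves (0.0119) and without vehicle replicate 2 (0.0404).

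SAMD9L and SAMD9, neighbours on chromosome 7, restrict poxviruses. SAMD9L was at 25.1, 23.2 and 23.3 CPM in the vehicle libraries and at 6.98, 6.55 and 9.35 CPM in those of the high dose. The high-dose libraries were all far below, a 3.17-fold fall (log2 -1.66, SE 0.14, adjusted p = 1.29e-14), while SAMD9 fell by 0.85 (SE 0.12, adjusted p = 5.16e-08). IFI44L, a widely used marker of interferon activity in blood, was at 27.9, 29.1 and 29.7 CPM in the vehicle libraries and at 10.4, 10.1 and 9.16 CPM in those of the high dose. With replicates this close its 2.90-fold fall (log2 -1.54, SE 0.08, adjusted p = 6.17e-21) had the smallest p of the effectors, whereas its neighbour IFI44 fell by 0.33 (SE 0.08, adjusted p = 0.000662). DDX60, a helicase linked to RIG-I signalling, fell by 1.00 (SE 0.12, adjusted p = 3.75e-10). EPSTI1 and the apoptosis-related XAF1 fell by 1.94 (SE 0.22) and 1.93 (SE 0.16). In the other direction went BST2, by 1.05 (SE 0.09), IFI27, by 1.17 (SE 0.12), the exonuclease ISG20, by 1.88 (SE 0.20), and RSAD2 (viperin), by 1.83 (SE 0.43). ISG20 and RSAD2 remained scarce, at 3.05 ± 0.467 and 1.24 ± 0.348 CPM (SD, n = 3) against 0.823 and 0.344 CPM. IFI6 rose by 0.43 (SE 0.17, adjusted p = 0.0248), a call lost without vehicle replicate 1 or 3 or high-dose replicate 1 or 2 (adjusted p = 0.0595, 0.0818, 0.0716 and 0.0549), and IFI35 changed by 0.07 (SE 0.11, adjusted p = 0.592).

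Among the 7 genes of ISG15 conjugation and ADP-ribosylation 5 fell and 1 rose, where 35.6% and 32.6% of all genes did. ISG15 itself (chromosome 1, 1001138 to 1014540) was at 22.4, 25.3 and 21.7 CPM in the vehicle libraries and at 22.0, 22.4 and 21.0 CPM in those of the high dose. The groups overlap, and its change of -0.09 (SE 0.20, adjusted p = 0.712) was not called. USP18, which removes ISG15 and dampens the type I receptor, was at 5.57, 5.41 and 5.63 CPM in the vehicle libraries and at 3.21, 2.36 and 1.97 CPM in those of the high dose. Every high-dose library lay below the vehicle, a 2.18-fold fall (log2 -1.13, SE 0.14, adjusted p = 6.4e-10). UBE2L6, the conjugating enzyme for ISG15, fell by 0.22 (SE 0.06, adjusted p = 0.00131) and HERC6, of the family of its ligase, by 0.71 (SE 0.11, adjusted p = 3.22e-07). PARP9, an ADP-ribosyltransferase partner of the ubiquitin ligase DTX3L, was at 11.6, 10.9 and 10.6 CPM in the vehicle libraries and at 2.96, 4.84 and 4.92 CPM in those of the high dose. The groups lie well apart, a 2.60-fold fall (log2 -1.38, SE 0.14, adjusted p = 2.54e-12). DTX3L fell by 0.33 (SE 0.10, adjusted p = 0.00293) although its libraries overlapped the vehicle's, and the call was lost without high-dose replicate 1 (adjusted p = 0.0825). PARP14, of the same enzyme family and chromosome region, was at 19.3, 17.2 and 17.6 CPM in the vehicle libraries and at 26.9, 28.1 and 31.1 CPM in those of the high dose. It went the other way with no overlap, a 1.59-fold rise (log2 0.67, SE 0.10, adjusted p = 1.34e-07).

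Within antigen presentation the class I chains rose while TAP1 and PSMB9, which serve peptide supply, fell. B2M (chromosome 15, 44711487 to 44718877) was at 837, 793 and 786 CPM in the vehicle libraries and at 1378, 1429 and 1216 CPM in those of the high dose. No libraries overlap, a 1.66-fold rise (log2 0.74, SE 0.08, adjusted p = 8.59e-12). HLA-E, whose product is read by receptors of NK cells, was at 239, 234 and 232 CPM in the vehicle libraries and at 545, 542 and 534 CPM in those of the high dose. Its replicates were nearly equal, and the 2.30-fold rise (log2 1.20, SE 0.05, adjusted p = 1.9e-24) had the smallest p of all members. HLA-B was at 396, 392 and 376 CPM in the vehicle libraries and at 622, 616 and 513 CPM in those of the high dose. It rose by 0.59 (SE 0.08, adjusted p = 4.26e-08) and HLA-C by 0.50 (SE 0.08, adjusted p = 1.37e-06). TAP1, a chain of the transporter that carries peptides into the endoplasmic reticulum, was at 77.2, 78.3 and 79.9 CPM in the vehicle libraries and at 63.7, 61.5 and 58.7 CPM in those of the high dose. The high-dose libraries lie below, a fall of 0.36 (SE 0.05, adjusted p = 1.83e-08). PSMB9, an immunoproteasome subunit, was at 15.9, 14.8 and 14.2 CPM in the vehicle libraries and at 8.54, 7.42 and 5.78 CPM in those of the high dose. It fell 2.05-fold (log2 -1.04, SE 0.13, adjusted p = 1.15e-09), and the subunit PSMB8 changed by -0.15 (SE 0.09, adjusted p = 0.155), not called here.

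**Figure D2:**
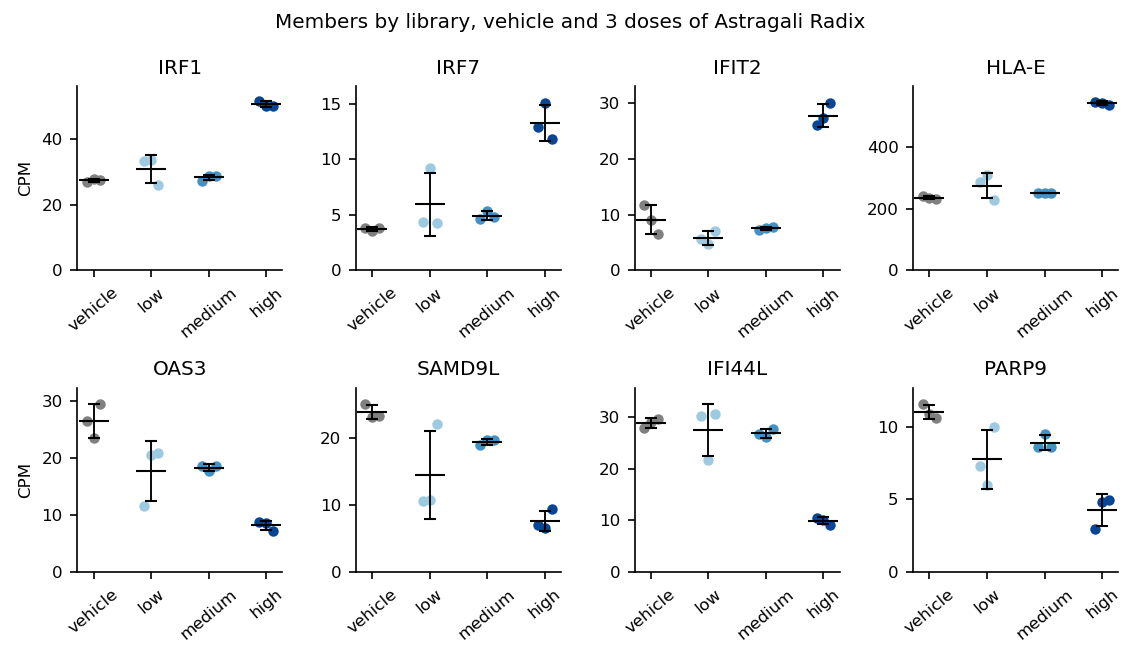
CPM of 8 members in each library of the vehicle and of Astragali Radix at 8.8, 44 and 220 µg/mL, with the mean and 1 SD of 3 libraries. IRF1, IRF7, IFIT2 and HLA-E are highest and OAS3, SAMD9L, IFI44L and PARP9 lowest on average at the high dose, and the low-dose libraries of SAMD9L were at 10.7, 10.7 and 22.2 CPM.

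At the medium dose of Astragali Radix the high-dose falls of several effectors were present in smaller size. STAT2 rose by 0.33 (SE 0.08) and ISG20 by 0.65 (SE 0.22), while OAS3 fell by 0.53 (SE 0.11), EPSTI1 by 0.50 (SE 0.18), MX2 and SAMD9 each by 0.47 (SE 0.14 and 0.12), OAS2 by 0.43 (SE 0.14) and B2M, which rose at the high dose, by 0.22 (SE 0.08). These are all 8 calls, 2 higher and 6 lower, where 7.75% and 8.81% of all genes were called. Of these, OAS3, SAMD9 and STAT2 kept their call whichever single library was left out. OAS3 was at 18.6, 17.6 and 18.6 CPM, every library below the lowest of the vehicle. With Astragali Radix high set aside, the vehicle had the highest of the group means for OAS3, SAMD9 and B2M. It had the lowest for STAT2 and ISG20, and neither for MX2, EPSTI1 and OAS2. The direction of the difference from the vehicle was thus not particular to this extract for OAS3, SAMD9, B2M, STAT2 and ISG20. Without the 2 libraries 6 rose and 11 fell, with 33.8% of all genes called.

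At the low dose 14 members rose and 11 fell, against 21.6% and 19.2% of all genes, and 3 of these 25 were also called without replicates 1 and 2. ISG15 was at 41.7, 87.4 and 24.1 CPM and PSMB8 at 56.6, 57.5 and 34.5 CPM in replicates 1, 2 and 3, and the third library of each lies near the vehicle. Without replicates 1 and 2 the calls came to 3 higher and 3 lower (15.9% of all genes), with STAT2 at 0.46, DDX60 at 0.29, IFI44 at 0.26, SAMD9 at -0.30, OAS3 at -0.32 and B2M at -0.20 on the log2 scale. These values rest on 1 library, whose spread is taken from the remaining groups. In an edgeR fit of the low dose and the vehicle by themselves 0 members were called, 12 had an unadjusted p under 0.05, and DESeq2 on all groups called 25.

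The dose trend, the difference between high and low dose divided by 2, is the average log2 change per 5-fold step and uses no vehicle library. The medium dose does not enter it, so a trend does not show a graded change. With Astragali Radix IRF1 had means of 31.0, 28.4 and 50.8 CPM and IFIT2 of 5.87, 7.55 and 27.8 CPM at the low, medium and high dose. Between its low and high dose 12 members rose and 19 fell, where 31.3% and 38.7% of all genes did. IFIT2 rose by 1.12 (SE 0.08, adjusted p = 5.79e-16) per step, HLA-E by 0.49 (SE 0.03, adjusted p = 3.14e-21), B2M by 0.43 (SE 0.04, adjusted p = 1.05e-13) and IRF1 by 0.36 (SE 0.03, adjusted p = 1.55e-13). IFI44L fell by 0.74 (SE 0.04, adjusted p = 3.56e-20) per step, XAF1 by 0.93 (SE 0.08), PSMB9 by 0.77 (SE 0.06) and USP18 by 0.63 (SE 0.07). Without the 2 libraries 14 rose and 18 fell (65.5% of all genes called). The values of IFIT2, HLA-E, IFI44L and PSMB9 were then 0.97, 0.61, -0.82 and -0.47, while ISG15 went from -0.61, called, to -0.08, which was not.

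STAT2, a transducer of type I signalling, lay above the vehicle in every extract library of the replicated groups. It was at 25.9, 25.0 and 27.5 CPM in the vehicle, and the 54 extract libraries ran from 27.5 to 42.0 CPM, the lowest of them, Sibjeondaebo-tang high replicate 3, just above the highest vehicle library. STAT2 rose at the high dose of all 6 extracts, by 0.45, 0.54, 0.56, 0.58, 0.58 and 0.21 on the log2 scale for Astragali Radix, Cinnamomi Cortex, Sagunja-tang and then Samul-tang, Palmul-tang and Sibjeondaebo-tang (largest adjusted p = 0.0365). The call for Sibjeondaebo-tang high was lost without vehicle replicate 1 or 2 or its own replicate 2 (adjusted p = 0.0923, 0.131 and 0.309) and with no filter on low counts (0.115). At the low doses it rose by 0.29, 0.40, 0.44, 0.47, 0.50 and 0.48 in the same order (largest adjusted p = 0.00191). No rise of STAT2 with dose was called: the trend was -0.13 (SE 0.04, adjusted p = 0.00693) for Sibjeondaebo-tang, a fall lost without its high-dose replicate 3 (adjusted p = 0.105), and was not called for the other 5. For STAT2, too, the extracts and the vehicle's own code cannot be told apart.

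DDX60, singled out after its values were seen, had the same pattern outside Astragali Radix. It was at 14.4, 13.7 and 12.6 CPM in the vehicle and between 16.1 and 22.0 CPM in the 45 libraries of the other 5 extracts, with no overlap. It rose by 0.57, 0.65, 0.30, 0.60 and 0.47 at the high doses of Cinnamomi Cortex, Sagunja-tang and then Samul-tang, Palmul-tang and Sibjeondaebo-tang and by 0.45, 0.57, 0.37, 0.43 and 0.44 at the low doses (largest adjusted p = 0.0353), and none of these 5 extracts had a called dose trend. With Astragali Radix high it was at 6.83, 6.68 and 6.83 CPM, below all others.

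**Figure D3:**
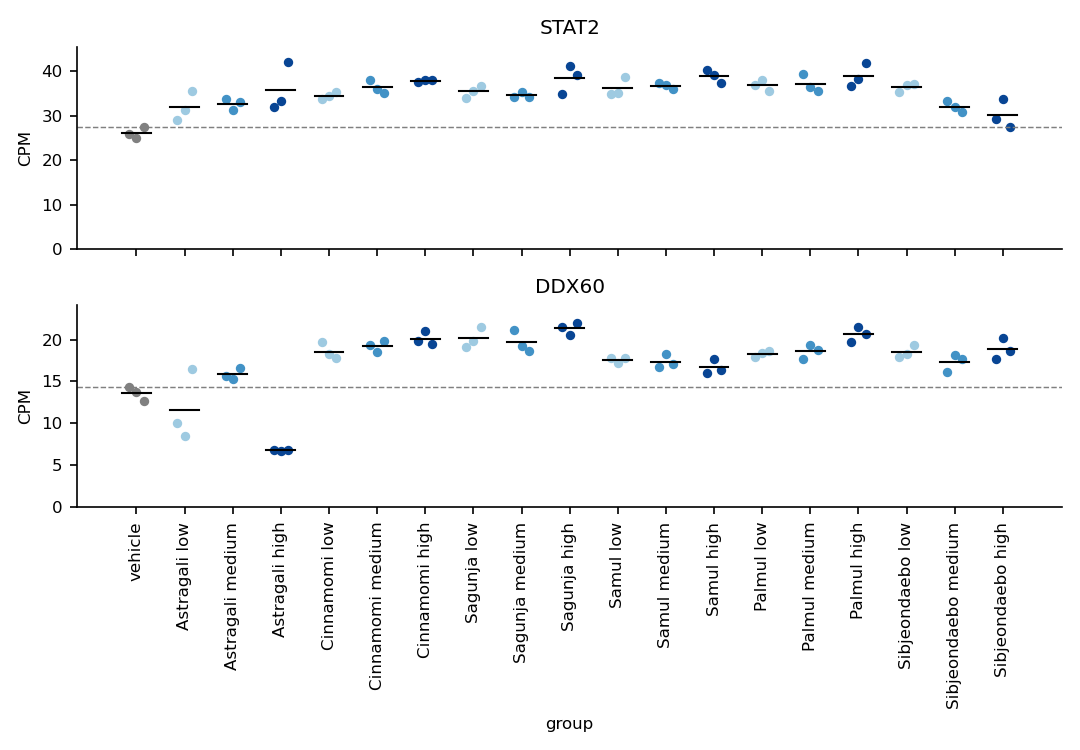
CPM of STAT2 and DDX60 in each library of the vehicle and the 18 groups, with a dashed line at the highest vehicle library. All extract libraries of STAT2 lie above the line, and DDX60 is above it for the 5 extracts other than Astragali Radix and below it at the high dose of Astragali Radix.

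At the high doses of Cinnamomi Cortex and of the formulas other than Samul-tang, the called changes were small and mostly upward. All are set against the same vehicle libraries. With Cinnamomi Cortex high 6 of 43 rose and 0 fell, against 7.7% and 8.56% of all genes, and without the 2 libraries 12 and 2 (32.8% of all genes called). The 6 were STAT2, DDX60, IFI44L (0.44, SE 0.07), IFI44 (0.33, SE 0.08), IFI27 (0.37, SE 0.12) and OASL (0.46, SE 0.14), of which IFI27 and OASL lost their call when some single libraries were left out. With Sagunja-tang high 13 of 43 rose and 0 fell, against 11.2% and 11.6% of all genes, and without the 2 libraries 22 and 0 (39.2% of all genes called). MX2 rose by 0.63 (SE 0.13), IRF7 by 0.47 (SE 0.17), MX1 by 0.43 (SE 0.14), PARP14 by 0.42 (SE 0.10) and IRF9 by 0.29 (SE 0.09), beside STAT2, DDX60, IFI27, IFI35, IFI44, IFI44L, UBE2L6 and PARP9. The calls of IFI44, IRF7, IRF9, MX1 and PARP9 were lost when some single libraries were left out.

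Palmul-tang high gave a like picture, in which 12 of 43 rose and 0 fell, against 10% and 10.2% of all genes, and without the 2 libraries 23 and 0 (36.4% of all genes called). MX1 was at 16.3, 16.6 and 19.2 CPM, above all vehicle libraries, and rose by 0.57 (SE 0.14, adjusted p = 0.00193). The other calls were RIGI, STAT2, IRF9, MX2, DDX60, IFI27, IFI35, IFI44, IFI44L, UBE2L6 and PARP14, from 0.22 for UBE2L6 to 0.60 for DDX60, and those of RIGI, MX2 and IFI35 were lost when some single libraries were left out. Samul-tang high differed, in that 3 of 43 rose and 3 fell, against 9.37% and 10.3% of all genes, and without the 2 libraries 6 and 5 (35.7% of all genes called). STAT2, DDX60 and PARP14 (0.34, SE 0.10) rose, and OAS3 (-0.39, SE 0.11), IFIT3 (-0.33, SE 0.11) and IFIT2 (-0.46, SE 0.17, adjusted p = 0.0499) fell. The IFIT2 call was lost with the replicate number as a block (adjusted p = 0.0517) and without vehicle replicate 1 or 2 or any 1 of the Samul-tang libraries (0.0632 to 0.473), and that of IFIT3 without the same libraries (0.06 to 0.227). OAS3 lost its call without vehicle replicate 3 (0.0953), PARP14 without vehicle replicate 2 (0.0523) and DDX60 without vehicle replicate 2 or 3 or Samul-tang replicate 2 or 3 (0.0544 to 0.147), which leaves STAT2 as the call kept in each such fit. With Sibjeondaebo-tang high 11 of 43 rose and 1 fell, against 11.2% and 11.9% of all genes, and without the 2 libraries 17 and 2 (38.4% of all genes called). Here antigen presentation genes were among the calls: TAP1 rose by 0.25 (SE 0.05, adjusted p = 0.000127), PSMB8 by 0.26 (SE 0.09, adjusted p = 0.0314) and HLA-E by 0.15 (SE 0.05, adjusted p = 0.0294) against the vehicle. Set directly against Palmul-tang at the same dose, TAP1 differed by 0.13 (SE 0.05, adjusted p = 0.0968), PSMB8 by 0.06 (SE 0.09, adjusted p = 0.75) and HLA-E by 0.13 (SE 0.05, adjusted p = 0.142), none of them called. IRF7 rose by 0.64 (SE 0.17), MX1 by 0.53 (SE 0.14), UBE2L6 by 0.33 (SE 0.06), and OAS3 fell by 0.35 (SE 0.11). RIGI, STAT2, DDX60, IFI27 and IFI35 also rose. The calls of PSMB8, HLA-E, OAS3, RIGI and STAT2 were lost when some single libraries were left out.

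At the low doses between 3 and 6 members were called, as many as at the high dose for Cinnamomi Cortex and fewer for the 4 formulas. With Cinnamomi Cortex low 5 of 43 rose and 1 fell, against 6.13% and 7.12% of all genes, and without the 2 libraries 8 and 4 (29.5% of all genes called). With Sagunja-tang low 5 of 43 rose and 0 fell, against 6.03% and 8.03% of all genes, and without the 2 libraries 10 and 2 (31.1% of all genes called). For Samul-tang low 4 of 43 rose and 1 fell, against 4.96% and 6.37% of all genes, and without the 2 libraries 7 and 3 (27.9% of all genes called). Under Palmul-tang low 3 of 43 rose and 0 fell, against 4.27% and 5.57% of all genes, and without the 2 libraries 5 and 2 (25.9% of all genes called). Under Sibjeondaebo-tang low 5 of 43 rose and 1 fell, against 4.15% and 5.47% of all genes, and without the 2 libraries 8 and 2 (25.8% of all genes called). STAT2, DDX60 and IFI44L rose in all 5 of these comparisons, which share the same 3 vehicle libraries. IFIT2 was the one member that fell, with Cinnamomi Cortex, Samul-tang and Sibjeondaebo-tang, by 0.52, 0.57 and 0.55, from vehicle libraries that themselves ran from 6.62 to 11.8 CPM. Each of these IFIT2 calls was lost without vehicle replicate 1 or 2 or any 1 of the extract's own low-dose libraries (adjusted p = 0.0505 to 0.382). STAT2 kept its call in all 5 whichever library was left out, DDX60 in all but Samul-tang and IFI44L in all but Palmul-tang.

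**Figure D4:**
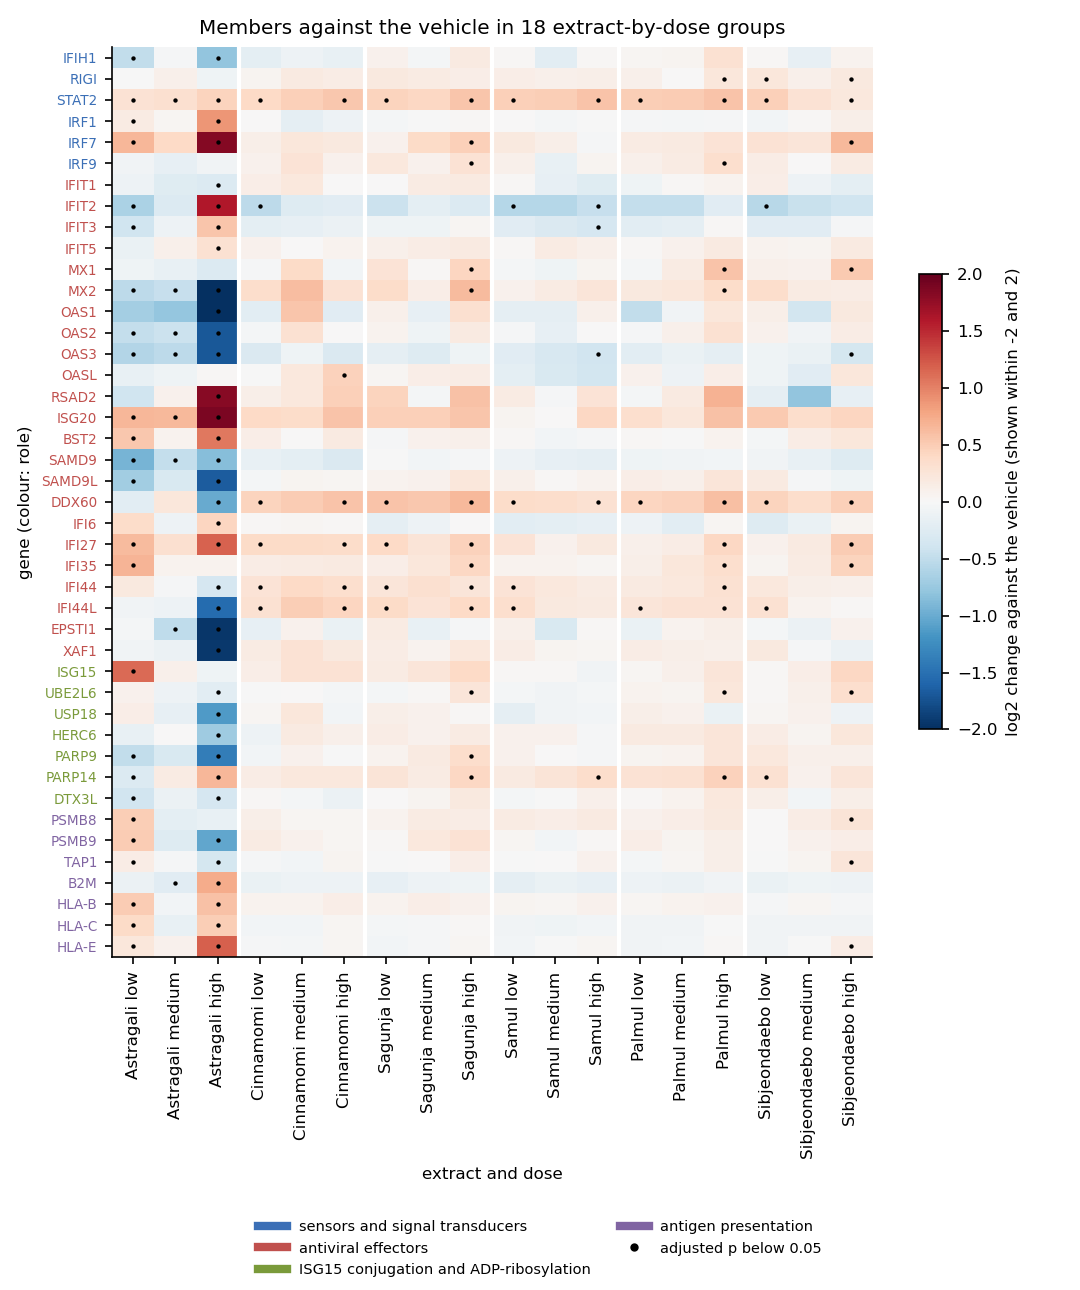
Log2 change of the 43 members (rows, by role) against the vehicle in the 18 groups (columns), with colours limited to -2 and 2. Dots mark an adjusted p below 0.05 and are not drawn for the medium doses of the 5 extracts other than Astragali Radix. The Astragali Radix high column holds the strong colours of both signs, and STAT2 is above 0 in every column.

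Between low and high dose, where no vehicle library enters, Sibjeondaebo-tang moved the most members after Astragali Radix. TAP1 was at 78.8, 76.9 and 77.3 CPM at the low dose and at 95.1, 85.8 and 98.7 CPM at the high dose. The groups do not overlap, and TAP1 rose by 0.13 (SE 0.02, adjusted p = 7.54e-05) per 5-fold step. HLA-E rose by 0.11 (SE 0.03, adjusted p = 0.00128) and PSMB8 by 0.12 (SE 0.04, adjusted p = 0.0435), so 3 of the 7 antigen presentation genes rose with dose. UBE2L6 rose by 0.15 (SE 0.03), MX1 by 0.22 (SE 0.07), IFI27 by 0.21 (SE 0.06), IFI35 by 0.20 (SE 0.05) and BST2 by 0.13 (SE 0.05), while STAT2 fell by 0.13, IFI44L by 0.14 and IFIT1 by 0.16. The calls of TAP1, HLA-E, UBE2L6, IFI27 and IFI35 were kept whichever single library was left out, and the others were not. Of all 43, 8 rose and 3 fell, against 10.6% and 10.7% of all genes, and without the 2 libraries 11 and 7 (38.7%). For Sagunja-tang 1 rose and 0 fell, against 2.06% and 1.71% of all genes, and without the 2 libraries 9 and 0 (13.1%). The one call was UBE2L6, at 0.14 (SE 0.03, adjusted p = 0.00185). For Palmul-tang 1 rose and 0 fell, against 1.92% and 1.77% of all genes, and without the 2 libraries 7 and 0 (11.8%). This was MX1, at 11.4, 11.5 and 11.2 CPM at the low and 16.3, 16.6 and 19.2 CPM at the high dose, a rise of 0.30 (SE 0.07, adjusted p = 0.00302) per step. For Cinnamomi Cortex 0 rose and 0 fell, against 0.243% and 0.198% of all genes, and without the 2 libraries 1 and 0 (2.91%), and for Samul-tang 0 rose and 0 fell, against 0.747% and 0.662% of all genes, and without the 2 libraries 1 and 0 (6.01%). For Cinnamomi Cortex 2 members had an unadjusted p under 0.05 in edgeR, and DESeq2 called 0. For Samul-tang 3 members had an unadjusted p under 0.05 in edgeR, and DESeq2 called 0.

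The formulas were compared directly at the shared high dose of 500 µg/mL, in 4 comparisons that also use no vehicle library. Palmul-tang and Samul-tang, and Palmul-tang and Sagunja-tang, also differ in label code, so formula and code cannot be told apart in those 2 comparisons. Sagunja-tang and Samul-tang hold different herbs, and 7 members, 5 of them antiviral effectors, were called higher with Sagunja-tang. UBE2L6 was at 55.8, 59.3 and 57 CPM with Sagunja-tang and at 47.5, 47.7 and 46.8 CPM with Samul-tang, a difference of 0.28 (SE 0.06, adjusted p = 0.00114). IFIT1 was at 10.6, 13.6 and 11.2 CPM against 8.80, 8.73 and 8.72 CPM, a difference of 0.43 (SE 0.11, adjusted p = 0.00983). In both genes all Sagunja-tang libraries lay above all Samul-tang libraries. OASL (0.50, SE 0.14), IFIT3 (0.38, SE 0.11), IFI35 (0.37, SE 0.11), PARP9 (0.37, SE 0.11) and DDX60 (0.35, SE 0.10) were also higher with Sagunja-tang. UBE2L6 kept its call whichever single library was left out, but not with no filter on low counts (adjusted p = 0.0568). Without Sagunja-tang replicate 2 it was the one call left, with IFIT1 at an adjusted p of 0.152, IFIT3 at 0.158, OASL at 0.312, IFI35 at 0.102, PARP9 at 0.216 and DDX60 at 0.0589. In all, 7 members were higher and 0 lower, against 2.47% and 2.23% of all genes, and without the 2 libraries 16 and 0 (15.6%).

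Palmul-tang joins the herbs of both. Between Palmul-tang and Sagunja-tang 0 members were higher and 0 lower, against 0.39% and 0.526% of all genes, and without the 2 libraries 0 and 0 (4.39%). 1 member had an unadjusted p under 0.05 in edgeR, and DESeq2 called 0. A p that misses the threshold does not show that the formulas act alike: the difference for MX1 was 0.14 with an SE of 0.13 and that for UBE2L6 -0.01 with an SE of 0.06. Between Palmul-tang and Samul-tang 2 members were higher and 0 lower, against 0.916% and 0.775% of all genes, and without the 2 libraries 11 and 0 (8.35%). MX1 was at 16.3, 16.6 and 19.2 CPM against 11.5, 11.1 and 14.0 CPM, a difference of 0.51 (SE 0.13, adjusted p = 0.0338), and UBE2L6 differed by 0.26 (SE 0.06, adjusted p = 0.00552). Without Palmul-tang replicate 2 neither was called (adjusted p = 0.0734 for MX1 and 0.0648 for UBE2L6). Between Sibjeondaebo-tang and Palmul-tang 0 members were higher and 2 lower, against 1.75% and 3.71% of all genes, and without the 2 libraries 5 and 7 (23.4%). STAT2 was at 29.2, 33.9 and 27.5 CPM with Sibjeondaebo-tang against 36.6, 38.4 and 41.9 CPM with Palmul-tang, lower by a log2 difference of -0.37 (SE 0.07, adjusted p = 0.0011), and IFI44L differed by -0.26 (SE 0.07, adjusted p = 0.0255). STAT2 kept its call in every alternative run, while IFI44L lost it without replicate 1 or 3 of either formula (adjusted p = 0.0849 to 0.287) and with no filter on low counts (0.0937).

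**Figure D5:**
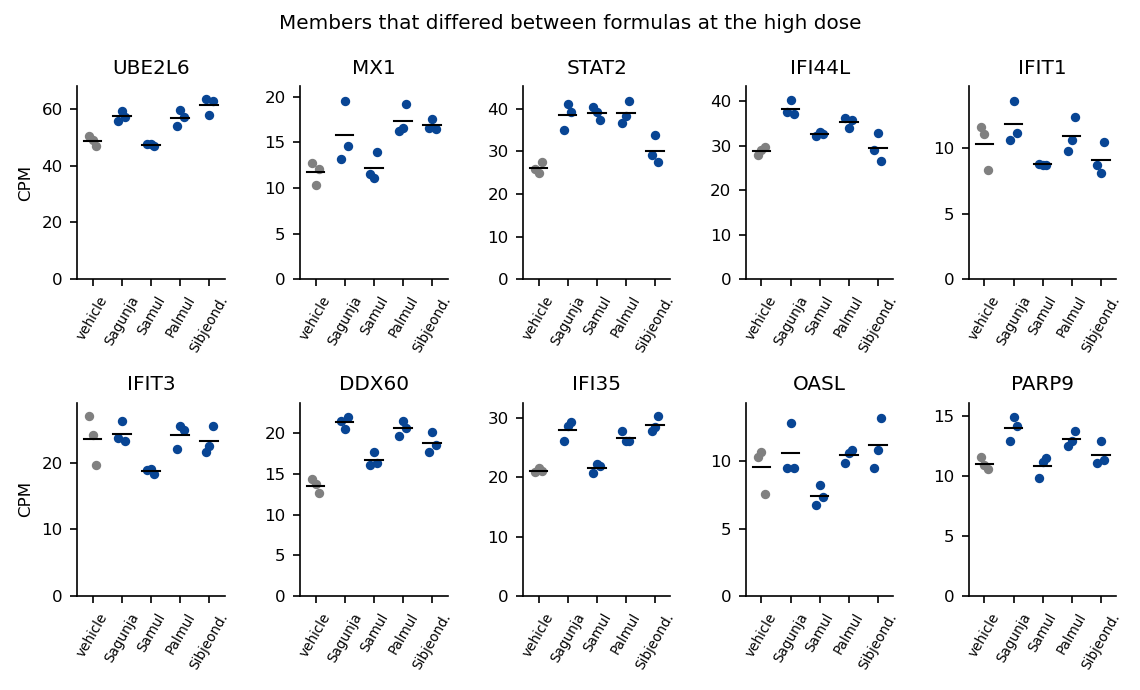
CPM of 10 members in each library of the vehicle and of the 4 formulas at 500 µg/mL, with a line at the mean of 3 libraries. UBE2L6 and MX1 are lower with Samul-tang than with Palmul-tang, and STAT2 is lower with Sibjeondaebo-tang than with Palmul-tang.

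Other genes of the pathway were read from 7 further lists at the high dose of Astragali Radix, where 32.6% of all genes rose and 35.6% fell, so that counts near these shares say nothing particular of a list. Of 21 interferon genes 2 were measured: IFNE, an epithelial type I interferon, fell by 1.22 (SE 0.18), and IFNA1, at a mean of 0.346 CPM in the vehicle, changed by -0.85 (SE 0.62, adjusted p = 0.226). With Sagunja-tang high IFNE and the scarce IFNA1, which rests on few counts, fell by 0.53 (SE 0.16) and 2.02 (SE 0.65). Of 9 receptors and kinases 2 rose and 4 fell. JAK1 and JAK2 rose by 0.61 (SE 0.05) and 0.53 (SE 0.10), while TYK2 and the interferon gamma receptor chain IFNGR2 fell by 0.51 (SE 0.11) and 0.71 (SE 0.07). Among 15 measured sensors, adaptors and other factors 6 rose and 8 fell: TRIM25, a ligase that activates RIG-I, rose by 1.16 (SE 0.05) and the DNA sensor IFI16 by 0.87 (SE 0.06), and the kinase IKBKE fell by 1.28 (SE 0.14) and the adaptor STING1 by 0.65 (SE 0.07). Of 4 measured feedback inhibitors 1 rose, SOCS3 by 0.46 (SE 0.07), and 3 fell, SOCS1 by 0.59 (SE 0.18), PIAS1 by 0.35 (SE 0.09) and PTPN2 by 0.28 (SE 0.09).

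Interferon-stimulated genes outside the 43 also went both ways, with 12 higher and 18 lower of 36 measured (all genes: 32.6% and 35.6%) and a median of -0.39 against -0.06 over all genes. The GTPase GBP4 fell by 3.65 (SE 0.31), TRIM14 by 1.98 (SE 0.09), the retrovirus restriction factor TRIM5 by 1.44 (SE 0.08) and the nucleotide hydrolase SAMHD1 by 0.84 (SE 0.06). Other class I genes were 8 higher and 3 lower of 14, with a median of 0.33. The proteasome activator PSME1 and the chaperone CANX rose by 0.64 (SE 0.08) and 0.47 (SE 0.06), and the peptide-loading factor TAPBP and the class I transactivator NLRC5 fell by 0.53 (SE 0.05) and 0.56 (SE 0.11). Of 9 measured class II genes 3 rose and 2 fell. CIITA, the transactivator of class II, fell by 1.56 (SE 0.14) and RFX5 by 1.29 (SE 0.06), while HLA-DRA rose by 0.59 (SE 0.10) and the invariant chain CD74 changed by 0.05 (SE 0.07, adjusted p = 0.56).

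In these lists 4 genes, picked out after their values were seen, were called at the high and low doses of most other extracts. CIITA rose at the high and low dose of all 5 other extracts, by 0.37 to 0.64 on the log2 scale. CD74 fell in the same comparisons, with changes from -0.42 to -0.21, as did TAPBP, from -0.36 to -0.21. SOCS3 rose in them all but Palmul-tang high. All share the same vehicle libraries.

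Within groups, members varied together most in antigen presentation. After removal of each group's mean, the mean Pearson r over pairs of genes across 54 libraries of 18 groups (Astragali Radix low left out) was 0.31 for the 7 antigen presentation genes, 0.16 for the effectors, 0.07 for the ISG15 and ADP-ribosylation genes, -0.05 for the transducers and 0.08 for all 43, against 0.0005 over all genes tested. The pairs with the highest r were IRF9 with MX1 (0.73), PSMB9 with HLA-C (0.70) and SAMD9L with XAF1 (0.69). Astragali Radix high was kept, and there PSMB9 was at 8.54, 7.42 and 5.78 CPM and HLA-C at 661, 627 and 572 CPM in replicates 1, 2 and 3. How far this group carries the r of these genes was not computed. HLA-B with HLA-C, PSMB9 with TAP1 and PSMB8, and PARP9 with DTX3L may also share reads. The points share libraries and their depth, and the values are a description.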

How the data were processed

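Per the labels' protocols, mRNA libraries were made with the MGIEasy RNA Directional kit and sequenced on MGIseq. Per the submitters' processing notes, the tools named are RSEM 1.3.3, STAR 2.7.3a, Trim Galore 0.6.5 and FastQC 0.11.9, with hg38, and the annotation release and strand setting are not given in the sources used here. The authors deposited RSEM expected counts, not normalized, for 60675 genes in 279 columns, of which 219 were not used in any step. Expected counts were rounded (90.8% were whole within 1e-09). Replicated groups (57 libraries) were fitted together with edgeR 4.0.16 in R 4.3.3 (quasi-likelihood F test, TMM, filterByExpr, 1 mean per group, common dispersion 0.00656), and a gene was called where its p, adjusted by Benjamini-Hochberg over 17676 genes, was below 0.05, with no minimum fold. The SE was taken as the size of the log2 change over the square root of F. CPM uses TMM-scaled totals, except for the cell type markers, whose CPM uses the library totals without TMM. Single libraries were compared with the vehicle mean with a pseudocount of 0.1 CPM and no test. Alternatives were DESeq2 1.42.0, RLE size factors, no filter, a replicate block, a length and GC correction, the compared groups by themselves, and leaving out libraries. The model was tested on simulated data.

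The members and lists were chosen with earlier results of these data known. Given library by library are up to 4 members of each role with the smallest adjusted p over 6 dose trends and Astragali Radix high, plus IFIT1, ISG15, MX1, STAT2, IRF1, B2M and HLA-B; other lists name up to 4 genes by the same measure. DDX60, UBE2L6 and PSMB8 were added after their values were seen. Promoters are from RefSeq (GRCh38.p14), and gene positions are on GRCh38. An item withheld for evaluation is not reported here.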

Additional observations from a re-analysis of the deposited data

Results flagged for a closer look

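At the shared high dose 11 differences of members between formulas passed a direct test (edgeR quasi-likelihood test of the contrast, adjusted over all genes, 3 libraries a formula). Sagunja-tang exceeded Samul-tang in UBE2L6 by 0.28 (SE 0.06, adjusted p = 0.00114), IFIT1 by 0.43 (SE 0.11, adjusted p = 0.00983), IFIT3 by 0.38 (SE 0.11, adjusted p = 0.0249) and DDX60 by 0.35 (SE 0.10, adjusted p = 0.026) on the log2 scale. It also exceeded it in IFI35 by 0.37 (SE 0.11, adjusted p = 0.0273), OASL by 0.50 (SE 0.14, adjusted p = 0.0304) and PARP9 by 0.37 (SE 0.11, adjusted p = 0.0463). Palmul-tang exceeded Samul-tang in UBE2L6 by 0.26 (SE 0.06, adjusted p = 0.00552) and MX1 by 0.51 (SE 0.13, adjusted p = 0.0338). For Sibjeondaebo-tang minus Palmul-tang the difference was -0.37 (SE 0.07, adjusted p = 0.0011) in STAT2 and -0.26 (SE 0.07, adjusted p = 0.0255) in IFI44L. When single libraries were left out in turn, STAT2 and, for Sagunja-tang against Samul-tang, UBE2L6 kept their calls. The other 9 were each lost at least once: without Sagunja-tang high replicate 2 all of IFIT1, IFIT3, DDX60, IFI35, OASL and PARP9, without Palmul-tang high replicate 2 both differences of Palmul-tang from Samul-tang, and IFI44L without replicate 1 or 3 of either formula.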

How the results depend on the processing

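The counts of members called moved by more than 1.5 times as follows. Without Astragali Radix low replicates 1 and 2 together the count was 17 for Astragali Radix medium, 6 for Astragali Radix low, 14 for Cinnamomi Cortex high, 12 for Cinnamomi Cortex low, 22 for Sagunja-tang high, 12 for Sagunja-tang low, 11 for Samul-tang high, 10 for Samul-tang low, 23 for Palmul-tang high, 7 for Palmul-tang low, 19 for Sibjeondaebo-tang high, 10 for Sibjeondaebo-tang low, 1 for Cinnamomi Cortex dose trend, 9 for Sagunja-tang dose trend, 1 for Samul-tang dose trend, 7 for Palmul-tang dose trend, 18 for Sibjeondaebo-tang dose trend, 11 for Palmul-tang against Samul-tang, 12 for Sibjeondaebo-tang against Palmul-tang and 16 for Sagunja-tang against Samul-tang. With a correction of each library for transcript length and GC content it was 15 for Astragali Radix medium, 13 for Cinnamomi Cortex high, 12 for Cinnamomi Cortex low, 21 for Sagunja-tang high, 11 for Sagunja-tang low, 11 for Samul-tang high, 6 for Palmul-tang low, 4 for Sagunja-tang dose trend, 3 for Palmul-tang dose trend, 6 for Palmul-tang against Samul-tang, 5 for Sibjeondaebo-tang against Palmul-tang and 13 for Sagunja-tang against Samul-tang. In a fit of the compared groups by themselves it was 16 for Astragali Radix medium, 0 for Astragali Radix low, 15 for Cinnamomi Cortex high, 11 for Cinnamomi Cortex low, 22 for Sagunja-tang high, 13 for Sagunja-tang low, 13 for Samul-tang high, 11 for Samul-tang low, 23 for Palmul-tang high, 7 for Palmul-tang low, 13 for Sibjeondaebo-tang low, 1 for Cinnamomi Cortex dose trend, 8 for Sagunja-tang dose trend, 13 for Palmul-tang dose trend, 19 for Sibjeondaebo-tang dose trend, 12 for Palmul-tang against Samul-tang, 10 for Sibjeondaebo-tang against Palmul-tang and 14 for Sagunja-tang against Samul-tang. With DESeq2 it was 5 for Palmul-tang low, 2 for Palmul-tang dose trend and 4 for Palmul-tang against Samul-tang, and with no filter on low counts 1 for Cinnamomi Cortex dose trend and 0 for Sagunja-tang dose trend. The cause was not tested. Leaving out 1 library at a time, with replicate numbers after the group's name, gave 3 to 6 for Astragali Radix medium (3 without Astragali Radix medium 3, 5 without vehicle 1/2/3 or Astragali Radix medium 2), 3 to 5 for Cinnamomi Cortex low (3 without Cinnamomi Cortex low 2), 3 to 4 for Sagunja-tang low (3 without vehicle 1 or Sagunja-tang low 2), 2 to 6 for Samul-tang high (2 without vehicle 2, 3 without Samul-tang high 2/3), 3 to 4 for Samul-tang low (3 without vehicle 1 or Samul-tang low 2), 3 to 4 for Sibjeondaebo-tang low (3 without vehicle 1/2 or Sibjeondaebo-tang low 2/3), 1 to 2 for Palmul-tang dose trend (2 without Palmul-tang low 2), 7 to 9 for Sibjeondaebo-tang dose trend (7 without Sibjeondaebo-tang low 2/3 or Sibjeondaebo-tang high 3), 0 to 2 for Palmul-tang against Samul-tang (0 without Palmul-tang high 2, 1 without Samul-tang high 1/2 or Palmul-tang high 1/3), 1 to 3 for Sibjeondaebo-tang against Palmul-tang (1 without Palmul-tang high 1/3 or Sibjeondaebo-tang high 1/3) and 1 to 5 for Sagunja-tang against Samul-tang (1 without Sagunja-tang high 2, 2 without Samul-tang high 1, 3 without Samul-tang high 3, 4 without Sagunja-tang high 1 or Samul-tang high 2). In edgeR, 7 members had an unadjusted p under 0.05 for the 0 of the Sagunja-tang trend with no filter (DESeq2 called 1) and 12 for the 0 of Palmul-tang against Samul-tang. Astragali Radix high, at 36 calls, and its dose trend stayed within 1.5 times under every setting run.

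Single-gene results kept their direction and side of the threshold in 1000 values with 1 library left out and 1324 others, lost their call in 220 and 95, gained one in 9 and 8 and changed sign in 1 and 8. For Astragali Radix low against the vehicle without replicates 1 and 2 these were HLA-C (-0.075), HLA-E (-0.029), IRF1 (-0.066), PARP14 (0.13), PSMB8 (-0.012), PSMB9 (-0.087), on the log2 scale, and TAP1 was -0.014 with the length and GC correction. In the Astragali Radix dose trend STAT2 was -0.0099 without those 2 libraries and HLA-B -0.054 without Astragali Radix low replicate 3 (over the libraries left out in turn, HLA-B ran from -0.054 to 0.10). OAS1, ISG20 and RSAD2 rest on few reads, at 0.987, 0.823 and 0.344 CPM in the vehicle.

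The labels do not say whether replicate numbers pair the samples. The median r of deviations was 0.009 for the same number and -0.005 for others. Yet 38 of 57 libraries were closest to their own number, more than an even spread over the numbers would give. With the replicate number as a block 36 members were called for Astragali Radix high, and no count moved by more than 1.5 times.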

Other observations

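Rehmanniae Radix Preparata, with 1 library at each dose and no test, was set beside the vehicle. The median log2 ratio of the 43 members to the vehicle mean (pseudocount 0.1 CPM) was 0.02 at the high, -0.0017 at the medium and 0.04 at the low dose, against 0.011, 0.010 and 0.003 over all genes, and 15, 12 and 14 members lay inside the range of the vehicle libraries at the high, medium and low dose. How many of all genes lay inside that range was not counted, so these counts are not shown to be particular to the members. STAT2 was at 38.3, 39.9 and 39.9 CPM, all above the 3 vehicle libraries. The one member more than 2-fold from the vehicle was RSAD2 at the medium dose, lower at 0.0633 CPM, a level of few counts.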
